A study of Mus musculus with 4 samples.

Results

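In mouse liver, 394 chromatin regions were found that had a scATAC-Seq peak at each of PHx 48 h, PHx 72 h and PHx 96 h and none in undamaged liver (PHx 0 h). PHx is partial hepatectomy, in which lobes of the liver are cut away. The regions were chosen by the presence of peaks alone. Merging every touching or overlapping peak of the 4 libraries gave 200890 regions, of which 197739 lay on autosomes, and the 394 gained regions are 1 of the patterns of presence among these. Their absence at 0 h is thus a description of how they were chosen and not a finding, and since a deposited matrix has a row only for a peak of its own library, their level at 0 h was not measured. They were compared with 62837 autosomal regions that had a peak in every library, called shared regions here, and with 15400 regions that had a peak at 48 and 72 h only.

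The study isolated hepatocytes by collagenase perfusion from male C57BL/6J mice aged 10 to 12 weeks on a normal diet. Nuclei went into Chromium Single Cell ATAC libraries, in which the Tn5 transposase cuts accessible DNA and a barcode marks the nucleus. The undamaged liver and the livers taken at 48, 72 and 96 h after surgery gave 1 library each. For 0 and 48 h a single hepatocyte preparation was used at each time, and for 72 and 96 h no source used here says whether animals were pooled. The time points asked which chromatin opens and closes in hepatocytes during regrowth. With 1 library per time point, library and time cannot be told apart, and no difference between times was tested. Intervals below cover counting error only, or for shares of regions the number of regions counted, and not differences between animals.

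Accessible chromatin lies mostly at promoters, where transcription starts, and at enhancers, distant elements that bind transcription factors. After PHx the remaining hepatocytes leave quiescence, replicate their DNA and divide, while they go on with the metabolic work of the liver. Whether a peak caller reports an element depends on how open it is and also on the depth and background of the library. Many promoters of vertebrate genes lie in CpG islands, stretches rich in C, G and the CG dinucleotide, and genes of embryonic patterning often lie in long ones.

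A window around the middle of the 48 h peak was read for every gained region from the RefSeq mouse genome (GRCm38, the build that mm10 names) on the plus strand, and 7 of these windows are printed. They show the 3 regions with the highest mean density over the times (in Plcb4, Ccdc190 and Eprs, a rank that rests on 96 h peaks of 24, 3 and 74 bp with 10, 1 and 24 counts), the highest region at a promoter, 2 regions near genes of the lists described below, and the region with the highest level, which was added after its value had been seen. Windows that ran into an exon were trimmed. In the first group, capitals mark letters that were searched for on both strands: TGANTCA, which AP-1 binds, CAGGTG of SNAI factors (or CACCTG on the other strand), TGTTTAC of FOXA, TTGGCA of NFI, ACANNNTGT of GRE (the steroid receptor element) and CCAAT of NFY. The window in the Plcb4 gene, chr2:135955232-135955531, held AP-1 and SNAI letters, that in Ccdc190, chr1:169931921-169932220, held SNAI, FOXA, NFI and GRE letters, and that in Eprs, chr1:185410237-185410496, ended in NFY letters.
Plcb4 intron window: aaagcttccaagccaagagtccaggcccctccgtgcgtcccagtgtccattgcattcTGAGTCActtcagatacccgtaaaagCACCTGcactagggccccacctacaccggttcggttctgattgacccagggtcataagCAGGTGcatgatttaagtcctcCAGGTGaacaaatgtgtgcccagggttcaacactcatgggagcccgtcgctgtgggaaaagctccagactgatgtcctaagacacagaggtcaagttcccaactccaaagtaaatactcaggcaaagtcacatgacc
Ccdc190 window: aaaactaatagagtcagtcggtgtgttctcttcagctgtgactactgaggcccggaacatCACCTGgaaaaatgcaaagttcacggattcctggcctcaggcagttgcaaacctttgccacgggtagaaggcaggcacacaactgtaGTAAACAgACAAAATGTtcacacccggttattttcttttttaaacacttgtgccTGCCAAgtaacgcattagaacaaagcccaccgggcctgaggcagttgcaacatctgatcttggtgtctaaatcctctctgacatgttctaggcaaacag
Eprs intron window: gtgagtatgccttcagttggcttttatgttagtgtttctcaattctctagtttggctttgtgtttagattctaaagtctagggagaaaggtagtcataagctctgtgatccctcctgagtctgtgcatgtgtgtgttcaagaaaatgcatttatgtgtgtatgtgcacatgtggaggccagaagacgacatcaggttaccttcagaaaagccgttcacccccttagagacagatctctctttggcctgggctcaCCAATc

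In the windows at Six2, chr17:85687122-85687392, and upstream of Hmga2, chr10:120552638-120552937, capitals mark CG dinucleotides, of which 19 and 22 were printed. Their CG counts were 0.92 and 0.842 times those their base composition would give (whole 300 bp windows), against a median of 0.233 over the gained regions.
Six2 promoter window: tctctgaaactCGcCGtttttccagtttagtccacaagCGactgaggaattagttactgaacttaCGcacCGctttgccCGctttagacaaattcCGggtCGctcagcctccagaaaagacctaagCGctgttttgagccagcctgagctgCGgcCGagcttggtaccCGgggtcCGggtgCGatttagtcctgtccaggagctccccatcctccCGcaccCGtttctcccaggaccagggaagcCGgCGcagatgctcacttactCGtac
Hmga2 upstream window: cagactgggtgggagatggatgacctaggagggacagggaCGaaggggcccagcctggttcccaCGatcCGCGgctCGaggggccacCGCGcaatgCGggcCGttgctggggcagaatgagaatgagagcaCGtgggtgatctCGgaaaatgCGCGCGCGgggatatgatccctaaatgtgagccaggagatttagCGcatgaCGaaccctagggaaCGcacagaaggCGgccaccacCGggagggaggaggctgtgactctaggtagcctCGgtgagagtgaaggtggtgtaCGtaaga

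The windows near Mcm5, chr8:75134839-75135138, and near Fgl1, chr8:41184857-41185156, held none of the 20 motifs that were searched, and neither has capitals.
Mcm5 downstream window: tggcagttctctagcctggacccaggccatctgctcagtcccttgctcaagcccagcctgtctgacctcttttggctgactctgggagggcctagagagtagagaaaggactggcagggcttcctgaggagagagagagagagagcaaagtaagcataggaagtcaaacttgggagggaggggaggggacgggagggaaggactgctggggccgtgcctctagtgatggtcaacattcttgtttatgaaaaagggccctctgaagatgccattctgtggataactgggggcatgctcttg
Fgl1 downstream window: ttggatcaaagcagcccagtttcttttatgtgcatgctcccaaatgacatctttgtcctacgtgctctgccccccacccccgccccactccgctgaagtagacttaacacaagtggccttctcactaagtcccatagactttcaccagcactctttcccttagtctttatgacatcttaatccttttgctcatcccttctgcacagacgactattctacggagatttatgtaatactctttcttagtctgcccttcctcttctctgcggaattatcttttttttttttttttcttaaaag

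The later libraries were shallower. Counts in peaks were 136949314 at 0 h, 62553202 at 48 h, 25540258 at 72 h and 15809769 at 96 h, and 3224 to 4256 barcodes per library had at least 1000 counts and were kept as nuclei. The label of hepatocytes was checked with 10 hepatocyte markers. In the 6 clusters that held 3142 to 3971 nuclei per library the markers lay 0.46 to 0.77 above the mean of the clusters on the log2 scale, and these nuclei are called hepatocyte-like. The clusters of this class split by library, with 1959 and 1712 of the 0 h nuclei in a pair of clusters and 2735, 2788 and 3046 nuclei of 48, 72 and 96 h in 1 cluster each, so levels at different times come mostly from different clusters. In the other 2 clusters, with 82 to 296 nuclei per library, they lay 1.47 and 1.79 below it (-1.47 and -1.79), and these are called hepatocyte-low. The libraries shared barcodes, with 681 to 882 in each pair, and 877, 237, 125 and 123 of the nuclei at 0, 48, 72 and 96 h carried a barcode found in another library. Without them the summed level of the gained regions described below was 978 CPM at 48 h in place of 961. The summed levels at 72 and 96 h and the ratios of cell classes over all gained regions moved by less than their counting error. The median changes between times stayed within the interval of the median over regions. Single regions were not recomputed.

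The gained regions were few beside all regions that could have shown such a gap. Of 63231 regions with a peak in the other 3 libraries, 394 lacked one at 0 h (0.623%, 95% interval 0.563 to 0.688%, exact binomial). The same share was 0.0382% (24 of 62861) for 48 h, 0.129% (81 of 62918) for 72 h and 31.4% (28711 of 91548) for 96 h. The 0 and 96 h libraries had fewer peaks (119839 and 77580) and larger shares than those of 48 and 72 h (158652 and 164113). Between 48 and 72 h the library with more peaks, 72 h, had the larger share. The part of the number of peaks in these shares was not tested. Seen from 96 h, 63397 autosomal regions had a peak, 450 of these (0.710%) had none at 0 h, and 87.6% of the 450 are gained regions. Peaks at 48 and 72 h without one at 0 h were thus mostly not called at 96 h.

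The gained regions were shorter and fainter than the shared regions but longer and higher than those of 48 and 72 h only, and they were shortest at 96 h. Their called length had a median of 512.5 bp at 48 h, 600.5 bp at 72 h and 189 bp at 96 h, and at 96 h it ranged from 1 to 1482 bp. At 96 h 64 of the 394 held under 50 bp of peak and 22 held no count, whereas 317 had at least 50 bp at every later time. Levels are counts of hepatocyte-like nuclei, scaled so that the counts of these nuclei in shared regions sum to 1000000 (CPM). The median CPM was 1.77 at 48 h (range 0 to 23.2), 3.01 at 72 h (0 to 20.9) and 1.64 at 96 h (0 to 19.4). The shared regions were higher, with medians of 1316 bp and 8.32 CPM at 48 h. The regions of 48 and 72 h only were lower, with medians of 356 and 348 bp, 0.976 and 1.27 CPM, and 2.75 and 3.68 CPM per kb at 48 and 72 h, against 3.24 and 4.65 CPM per kb in the gained regions. A gained region had a count in a median of 55 nuclei at 48 h, 35.5 at 72 h and 17.5 at 96 h, and 205 of the 394 had at least 20 counts at each later time.

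Summed over the 394 regions, the level was 961 CPM at 48 h (949 to 973, exact Poisson 95% interval on counts divided by 2, since both ends of a fragment are counted), 1510 CPM at 72 h (1487 to 1534) and 731 CPM at 96 h (712 to 751). It was highest at 72 h and lowest at 96 h, and 274 of the regions (69.5%) had their highest CPM at 72 h, 52 (13.2%) at 48 h and 68 (17.3%) at 96 h. Of the shared regions 33.5% were highest at 72 h, 31.7% at 48 h and 34.7% at 96 h. The called length behind these sums was 285.8, 325.2 and 82.55 kb. Per kb of called peak the order was another one, with 3.36, 4.64 and 8.86 CPM per kb at 48, 72 and 96 h, so the level fell at 96 h by CPM and rose by density. By density 339 of the 394 (86.0%) were highest at 96 h, against 96.7% of shared regions.

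**Figure D1:**
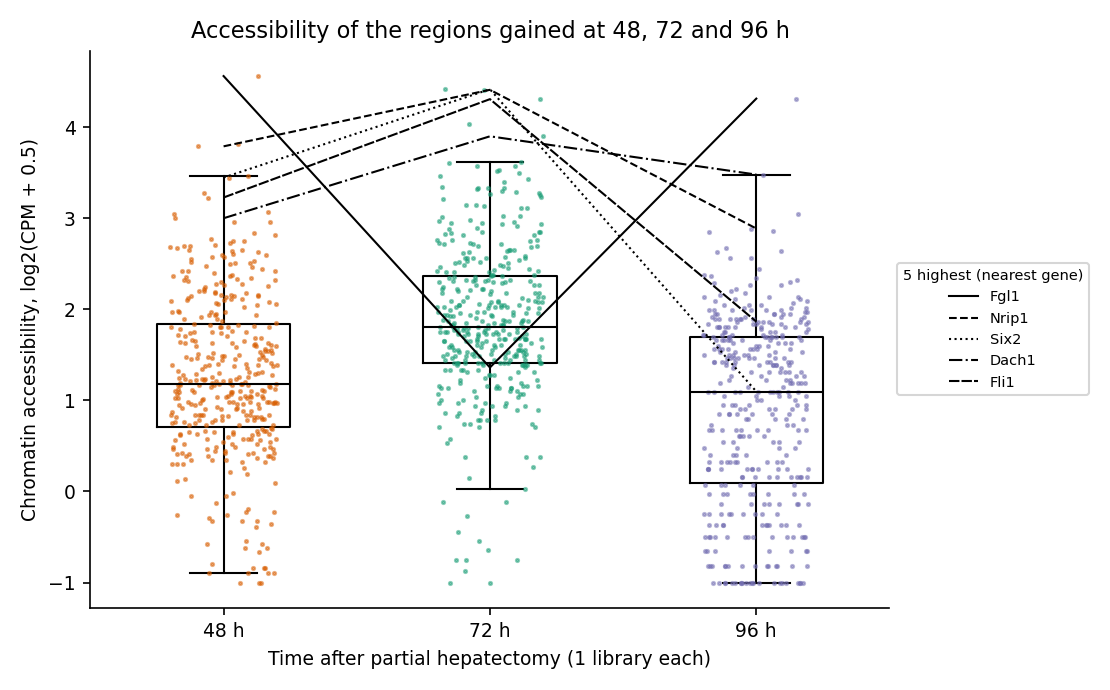
Chromatin accessibility of the 394 gained regions at 48, 72 and 96 h as log2(CPM + 0.5), 1 point per region and 1 library per time, with boxes at the quartiles, whiskers to the farthest point within 1.5 box heights, and lines for the 5 regions with the highest mean. The boxes are highest at 72 h, and the region near Fgl1 runs against the others with 23.2, 2.07 and 19.4 CPM.

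To compare called peaks between libraries of unequal depth, peaks of 300 to 1000 bp were set side by side by their density. In all such peaks the median density was 3.41, 3.47, 4.91 and 12.2 CPM per kb at 0, 48, 72 and 96 h. The gained regions lay at 3.36 CPM per kb at 48 h (246 peaks, the 46th percentile of all peaks of that library), at 4.97 at 72 h (278 peaks, 51st percentile) and at 8.92 at 96 h (100 peaks, 12th percentile). Their medians were thus close to those of all peaks at 48 and 72 h and in the lower part at 96 h, and their dense end was missing, with 90th percentiles of 4.54, 6.64 and 11.4 CPM per kb against 6.54, 9.22 and 19.7. Peaks as sparse as 2.12 CPM per kb, the 5th percentile, were called at 0 h, and 242 of the 246 peaks of gained regions at 48 h (98.4%) were denser than that, against 98.7% of all 48 h peaks of this length. Of the 246, 113 (45.9%) were denser than the 0 h median, against 52.1% of all 48 h peaks. A further limit of 4.23 CPM per kb, 2 times the 5th percentile of 0 h, was exceeded by 38 (15.4%) against 32.5%. At 72 h the order was the other way. There 94.2% of the peaks of gained regions were denser than the 0 h median against 86.6% of all peaks, and 71.2% exceeded 4.23 against 65.9%. At 96 h these shares were 98% against 99.99% and 97% against 99.98%.

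**Figure D2:**
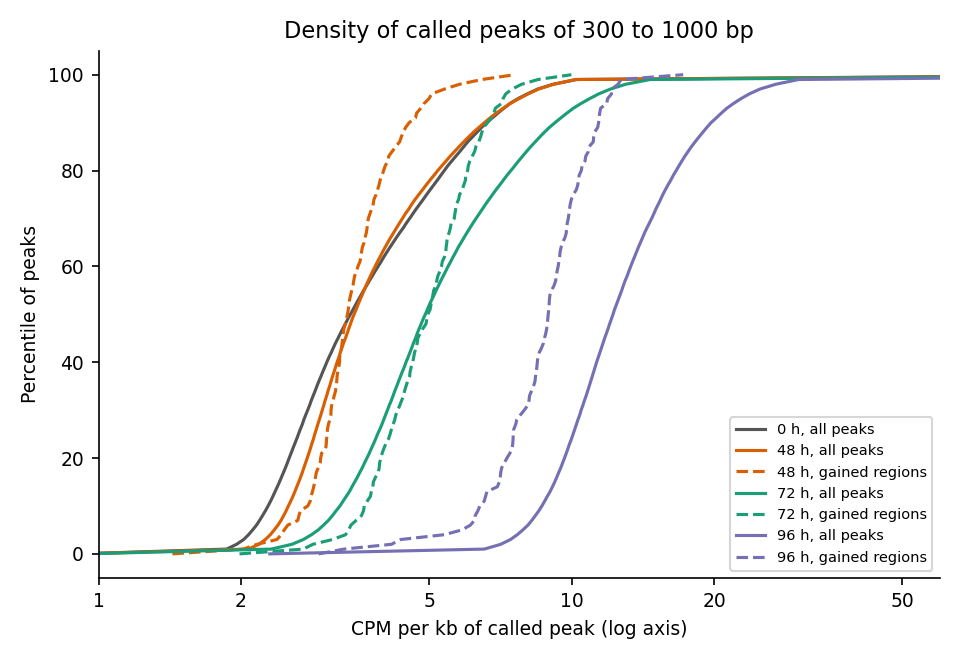
Percentile of peaks (y axis) by density in CPM per kb of called peak (log x axis), for called peaks of 300 to 1000 bp in each library, with solid lines for all peaks and dashed lines for those of gained regions. The dashed and solid lines meet near the median at 48 h (3.36 against 3.47) and 72 h (4.97 against 4.91) and part above it (3.86 against 4.75 and 5.80 against 6.804 at the 75th percentile), and at 96 h the dashed line lies to the left (median 8.92 against 12.2).

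At the edge of the rule, the nearest 0 h peak to a gained region was 357 bp away, the median distance was 10149 bp and the farthest was 541015 bp. Of the 394, 1 had a 0 h peak within 500 bp, 15 within 1000 bp and 196 within 10 kb. Just outside the rule were 45 shared regions with under 50 bp of peak at 0 h, at 0 to 0.146 CPM. Their medians of 2.55, 3.72 and 1.504 CPM at 48, 72 and 96 h were near those of the gained regions. Beside 169 gained regions there was a shared region within 10 kb, 165 different ones in all, whose median log2 ratio to undamaged liver was 0.55, 0.92 and 0.68 at 48, 72 and 96 h, against 0.11, 0.18 and 0.09 over all shared regions. Among neighbours whose called length differed by at most 10% between the libraries the ratios were 0.23 (47 regions) against 0.01, 0.58 (39) against 0.37 and 1.63 (14) against 1.40. This contrast with 0 h is the one the rule used and is given as a description.

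Of the regions with the highest levels, several lay over start sites. The region near Fgl1, which encodes a secreted fibrinogen-like protein made by hepatocytes, lies at chr8:41182705-41187309, 27844 bp downstream of the Fgl1 start and in no protein-coding gene. It had 23.2 CPM at 48 h (21.4 to 25.1), 2.07 at 72 h (1.298 to 3.14) and 19.4 at 96 h (16.4 to 22.9), from 1233, 44 and 284 counts. The 48 and 96 h values were high and the 72 h value was low, and the 72 h peak was 736 bp long against 4605 bp at 48 h and 1482 bp at 96 h. A region in Nrip1, the gene of a nuclear receptor corepressor (chr16:76359720-76364379), had 13.4, 20.8 and 6.91 CPM at 48, 72 and 96 h, highest at 72 h and lowest at 96 h by CPM.

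Over the start of Six2, a homeobox gene of kidney progenitors (chr17:85683531-85689442), the levels were 10.4 CPM at 48 h (9.23 to 11.7), 20.9 at 72 h (18.2 to 23.8) and 1.64 at 96 h (0.848 to 2.87). By CPM the 96 h level, from 24 counts in a 303 bp peak, was below the others, whose peaks were 4321 and 5840 bp long. Per kb of peak the order turned, with 2.41, 3.58 and 5.42 CPM per kb. Over the start of En1, a homeobox gene of the midbrain and limb (chr1:120600581-120604300), they were 10.5, 15.9 and 2.33 CPM, and 3.19, 4.28 and 7.55 CPM per kb. At Fli1, which encodes an ETS factor of blood and endothelium (chr9:32539261-32544451), they were 8.88, 19.3 and 3.15 CPM, and 2.83, 3.73 and 7.07 CPM per kb. In all 3 regions 96 h was lowest by CPM and highest by density.

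The region at Dach1, the gene of a transcriptional corepressor of eye and limb development (chr14:98167750-98170244), kept more of its CPM at 96 h, with 7.51 CPM at 48 h (6.51 to 8.63), 14.5 at 72 h (12.3 to 16.9) and 10.7 at 96 h (8.43 to 13.3). That over the start of Cbln2, whose secreted product organises synapses, lay at 3.42, 9.60 and 7.80 CPM. These 2 were the only gained regions left when each later peak had to hold at least the median count of the peaks of its library. A region 18644 bp upstream of Pax3, a paired-box gene of neural crest and muscle (chr1:78215778-78217741), had 7.30, 10.6 and 6.77 CPM, and that over the start of Gpr27, an orphan receptor gene (chr6:99691823-99693793), had 6.23, 8.33 and 6.70 CPM. In both the 48 and 96 h intervals overlapped.

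Over the starts of C1ql2, a synaptic C1q-like gene (chr1:120340268-120343040), and Megf6, which encodes a protein with EGF-like repeats (chr4:154169727-154172583), the levels were 7.79, 11.8 and 3.35 CPM and 6.53, 11.7 and 3.21 CPM. Over that of Bean1 (chr8:104170037-104171656) they were 4.84, 9.55 and 5.40 CPM. In each of these 72 h was the highest by CPM. A peak 708 bp upstream of Nkx2-2, a homeobox gene of pancreas and neural tube (chr2:147187112-147191058), had 9.18 and 11.0 CPM at 48 and 72 h, and at 96 h its peak was 4 bp long and held no count.

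Between the later times, CPM and density gave different pictures. Changes are log2 differences with a pseudocount of 0.5, in regions with at least 20 counts in 1 of the 2 libraries, and the background is every autosomal region with a peak at 48, 72 and 96 h. From 48 to 72 h, 92 of 391 gained regions rose at least 2-fold in CPM against 1.65% of the background, and 12 fell at least 2-fold against 1.48%. Their median log2 change was 0.63 against 0.07. With pseudocounts of 2 and 0.1 CPM, 28 and 124 rose at least 2-fold and 3 and 13 fell, so these numbers depend on the pseudocount. At 0.5 the gained regions thus rose at 72 h more often than the background did. Their called length also rose (median log2 ratio 0.16 against -0.21), and in CPM per kb 19 of 391 rose at least 2-fold against 0.89% and 6 fell against 0.038%, with a median of 0.48 against 0.31.

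From 48 to 96 h, 47 of 381 gained regions rose at least 2-fold in CPM against 1.89% of the background and 110 fell against 11.9%, with a median of -0.35 against -0.01. In CPM per kb 245 rose against 48.3% and 21 fell against 0.867%, and the median was 1.19 against 0.98. From 72 to 96 h, 8 of 382 rose in CPM against 0.382% and 192 fell against 10.9% (median -1.01 against -0.06), whereas in CPM per kb 106 rose against 15.4% and 25 fell against 0.977% (median 0.69 against 0.67). The fall in CPM at 96 h went with shorter peaks, since the median log2 ratio of called length from 48 to 96 h was -1.78 in the gained regions and -1.02 in the background. In CPM per kb the median of the gained regions was near that of the background from 72 to 96 h. Among gained regions of like length (within 10%) the median log2 CPM change was 0.45 from 48 to 72 h (91 regions, 0 of them 2-fold higher or lower) and 1.31 from 48 to 96 h (14 regions).

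**Figure D3:**
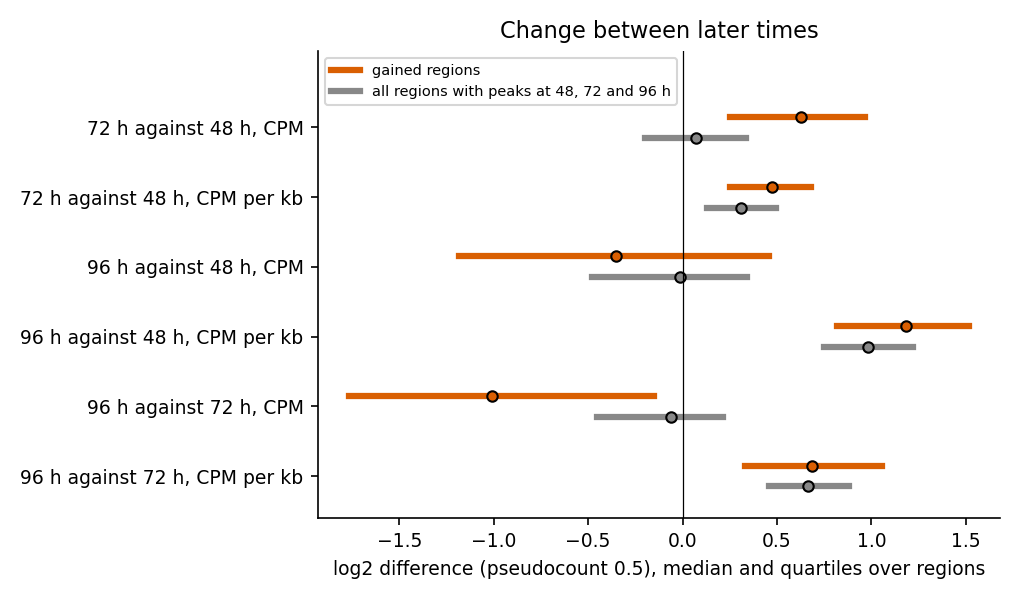
Medians (points) and quartiles (bars) over regions of the log2 difference between later times, in CPM and in CPM per kb with a pseudocount of 0.5, for the gained regions and for all regions with a peak at 48, 72 and 96 h. From 72 to 96 h the gained regions lie at -1.01 by CPM and at 0.69 by CPM per kb.

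The 5 regions that fell most from 48 to 96 h in CPM per kb all held no count at 96 h, in peaks of 1 to 37 bp. They lay in Prim2, which encodes a subunit of the DNA primase (chr1:33577194-33577965, 3.42, 3.72 and 0 CPM), in Pkmyt1, the gene of a kinase that holds CDK1 inactive (chr17:23731090-23731853, 3.27, 3.34 and 0 CPM), near Gm17409 inside the activin receptor gene Acvr1 (chr2:58453154-58455431, 2.33, 9.32 and 0 CPM), in Kcnab1 (chr3:65170550-65171036, 1.77, 2.54 and 0 CPM) and 209614 bp upstream of Tet2, which encodes a dioxygenase of methylcytosine (chr3:133754753-133755267, 2.23, 2.17 and 0 CPM). All 5 had 48 h values above the median of the gained regions except that in Kcnab1, which was at it. The 5 that rose most rested on short peaks too. A region 424749 bp from Dsc3 and another in Ccbe1, 21664 bp from its start, had peaks of 6 and 35 bp with no count at 48 h and then 3.15 and 3.21 CPM at 96 h. That far from Mms22l (513015 bp) went from 0.0563 to 1.44 CPM, with a 69 bp peak at 48 h. In Eprs, the gene of a transfer RNA synthetase (chr1:185409854-185410832), the levels were 2.31, 1.69 and 1.64 CPM and in Plcb4, a phospholipase gene (chr2:135955221-135956043), 0.845, 3.53 and 0.684 CPM. In these 2 the rise in density came with 96 h peaks of 74 and 24 bp and no rise in CPM.

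The gained regions lay at promoters about as often as the shared regions did. Of the 394, 122 lay within 1000 bp of an annotated transcription start site (30.96%, 95% interval 26.4 to 35.8%), against 30.4% of shared regions and 13.9% of regions of 48 and 72 h only. A further 111 (28.2%) lay within 10 kb and 161 (40.9%) farther away, and 97 overlapped a start site. With starts of protein-coding genes alone, 103 (26.1%) were at promoters. Of those that were not at promoters, 22 overlapped an exon (5.58% of the 394, 3.53 to 8.33%), 121 lay in introns (30.7%) and 129 outside genes (32.7%). In shared regions these shares were 10.6%, 30.4% and 28.7%, and in regions of 48 and 72 h only 11.9%, 44.4% and 29.8%, so exons were the less common place among gained regions. More lay over 100 kb from any protein-coding start, 66 of 394 (16.8%, 13.2 to 20.8%) against 10.6% of shared regions and 10.3% of regions of 48 and 72 h only. By CPM the promoter regions were higher at 48 and 72 h, with medians of 2.75 and 4.49 CPM against 1.47 and 2.49 for those over 10 kb away, and at 96 h the medians were 1.81 and 1.64 CPM. Their called length was greater (792 and 992 bp against 414 and 465 bp at 48 and 72 h), and per kb they were lower, with 3.16 and 4.55 CPM per kb against 3.30 and 4.92.

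**Figure D4:**
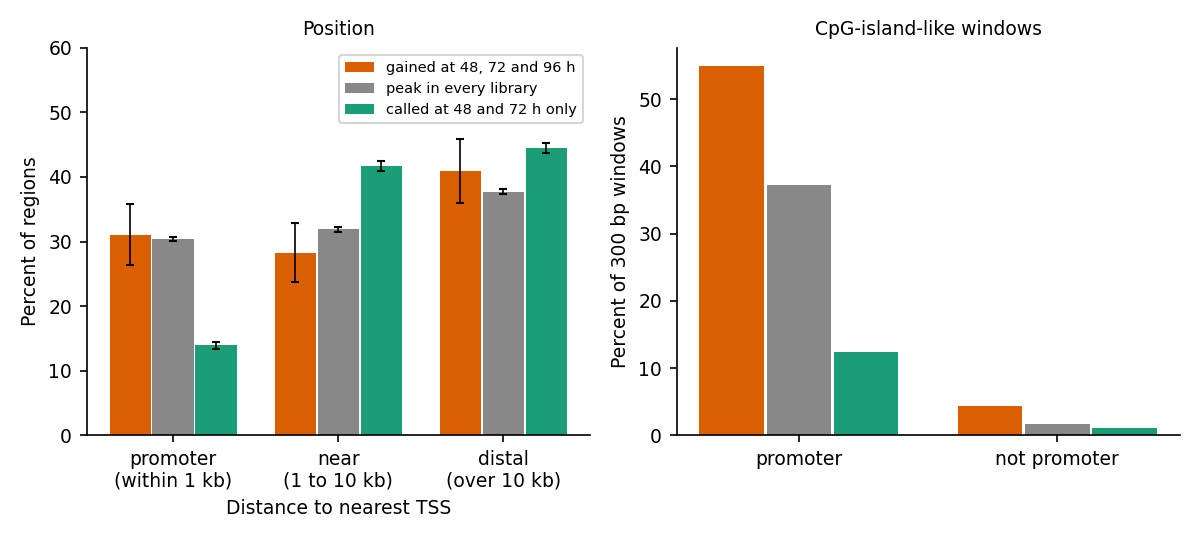
Left, percent of regions by distance to the nearest start site for gained regions, shared regions and regions of 48 and 72 h only, with exact binomial 95% intervals as error bars. Right, percent of 300 bp windows that are CpG-island-like at promoters and elsewhere, without error bars. At promoters 54.9% of gained, 37.3% of shared and 12.5% of 48 and 72 h only windows are CpG-island-like.

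The regions were spread over all autosomes. Chromosome 2 held 53 (13.5%), against 8.51% of shared regions and 13.0% of regions of 48 and 72 h only, and chromosomes 15 and 16 held 7 each. They were mostly alone, with a median gap of 3291324 bp between neighbours on a chromosome and 28 neighbouring pairs within 100 kb. The nearest protein-coding genes were 368 different ones. Of these, 22 were nearest to 2 gained regions, and 2 were nearest to 3. Those 2 were Hfm1, which encodes a helicase of meiosis, with ranges of 0.995 to 1.09, 2.45 to 2.64 and 1.03 to 2.12 CPM at 48, 72 and 96 h, and Tspan9, a tetraspanin gene, with 0.883 to 3.87, 2.21 to 5.27 and 0.0684 to 1.98 CPM.

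Genes of embryonic patterning recurred among the nearest genes. Transcription factors of the homeobox, paired-box, Sox, Fox, Hox and related families were listed by a pattern on their symbols after the nearest genes had been seen, so their number is a description and no test. The 292 genes of that list (1.41% of 20780 protein-coding genes) were nearest to 29 gained regions (7.36%), against 2.32% of shared regions and 3.97% of regions of 48 and 72 h only, and 26 different genes were named, with 25 of the 29 regions within 100 kb and 14 at the promoter. At 48, 72 and 96 h their medians were 2.84, 5.41 and 0.821 CPM, against 1.73, 2.97 and 1.64 CPM in the other 365 regions. By CPM they were higher than the others at 48 and 72 h and lower at 96 h. Their median called lengths were 1066, 1173 and 116 bp against 491, 588 and 194 bp, and per kb they were the lower ones at each time, with 3.001, 4.45 and 7.52 CPM per kb against 3.24, 4.68 and 8.73. By CPM 26 of the 29 (89.7%) were higher at 72 h than at 48 h, against 308 of the other 365 (84.4%), and 26 were lower at 96 h than at 48 h, against 209 (57.3%).

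Among them, a region over the start of Hand2, a gene of heart, limb and stellate cells (chr8:57319643-57322561), had 5.60, 9.65 and 0 CPM at 48, 72 and 96 h, and another 12317 bp downstream (chr8:57333300-57334561) had 2.84, 5.41 and 2.12 CPM. At Lmx1b, a LIM homeobox gene of limb and kidney (chr2:33638584-33641227), the levels were 5.97, 9.51 and 1.299 CPM, and at Zic4, a zinc finger gene of the cerebellum (chr9:91377433-91379516), 3.004, 9.37 and 0.410 CPM. By CPM all 3 promoters were lowest at 96 h, where their peaks were 10 bp (Hand2), 289 bp (Lmx1b) and 40 bp (Zic4) long. Per kb of peak 96 h was still lowest at Hand2, with 2.63, 3.475 and 0 CPM per kb, from a 96 h peak without counts. At the others this order did not hold, with 3.001, 4.81 and 4.496 CPM per kb at Lmx1b and 3.69, 4.49 and 10.3 CPM per kb at Zic4. At Foxe3, a forkhead gene of the lens (chr4:114924860-114926467), 5.95, 6.07 and 5.88 CPM were nearly level, and at Pax1 (chr2:147364931-147366340), a gene of the vertebral column, 4.34, 8.19 and 3.08 CPM fell between these patterns. The lowest at 48 h was a region 538203 bp upstream of Zic4 with 0.0751, 2.17 and 0.0684 CPM.

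Gene lists drawn up for hepatocyte biology and regeneration were nearest to few gained regions, at a share near that of their genes among all genes. The 16 lists held 415 genes, 408 of them annotated, beside 20780 protein-coding genes in all. They were nearest to 6 gained regions (1.52%), against 3.44% of shared regions and 2.82% of regions of 48 and 72 h only. Of the 6, 3 lay within 100 kb of the gene. The region 11563 bp downstream of the start of Mcm5, which encodes a subunit of the replicative helicase (cell cycle list), had 2.35, 3.01 and 0.274 CPM at 48, 72 and 96 h. That 44476 bp downstream of Cyp2c29, a cytochrome P450 gene (P450 list), had 1.52, 6.12 and 1.78 CPM. That 75551 bp upstream of Hmga2, an oncofetal chromatin protein (progenitor list), had 4.54, 7.06 and 2.19 CPM. By CPM the first was lowest at 96 h, from 4 counts in a 28 bp peak, and in the others 72 h was highest.

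The other 3 were distant. The region 154385 bp from Smad2, which carries TGF-beta and activin signals and is in the TGF-beta list and in the list of fetal state factors that the study picked on these samples, had 1.80, 2.68 and 3.28 CPM. That 279352 bp from Foxa2, a factor of liver identity (list of hepatocyte transcription factors), had 1.45, 3.06 and 0 CPM. That 1518120 bp from the activin receptor gene Acvr2a had 1.48, 2.87 and 3.83 CPM. No gained region was nearest to a gene of the lists of immediate early genes, acute phase genes, Hippo and TEAD genes, growth factors, cytoskeleton, bile acids, lipid droplets, cholesterol or sex-biased hepatocyte genes. Each of these lists was nearest to 0.14 to 0.302% of shared regions, so a count of 0 in 394 was near the background. Inside Fgfr2, a growth factor receptor gene, lay 2 gained regions whose nearest start was that of Tacc2, with 0.695 and 0.601 CPM at 48 h, 0.612 and 5.18 at 72 h and 0 and 0.957 at 96 h. Among the cell type markers, the 10 endothelial ones were nearest to 2 gained regions (Cdh5 and Flt4), the 10 stellate and mesenchymal ones to the 2 at Hand2, and the hepatocyte, myeloid, lymphocyte, cholangiocyte and neutrophil markers to none. These shares of 0.508% for the endothelial and the stellate lists stand beside 0.0875 and 0.0684% of shared regions and 0.0974 and 0.0844% of regions of 48 and 72 h only, and the other 5 lists were nearest to 0.0175 to 0.118% of shared regions.

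The windows of the gained regions were richer in G and C than those of the shared regions, and more often like CpG islands. The median GC content was 51.5% against 48.3% in shared regions and 50.3% in regions of 48 and 72 h only. At promoters it was 62% against 54.7% and 53.7%, and elsewhere 49.3% against 46.7% and 50%. A window was called CpG-island-like at a GC content of at least 50% and at least 0.6 times the CG dinucleotides its base composition would give. There were 79 such windows (20.1%), against 12.5% of shared regions and 2.73% of regions of 48 and 72 h only, and 67 of the 79 were at promoters. These 79 had medians of 3.004, 4.99 and 2.05 CPM at 48, 72 and 96 h against 1.60, 2.68 and 1.57 in the other 315, and their peaks were longer (834 against 459 bp at 48 h). Per kb of peak their medians were 3.22, 4.55 and 7.98 CPM per kb against 3.24, 4.699 and 8.86. Annotated repeats covered at least 50% of the window in 19 (4.82%) of the gained regions against 6.01% of shared regions.

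Most motif letters were found at shares near those of the shared regions. TGANTCA of AP-1 was in 11.2% of the gained windows (8.23 to 14.7%), in 9.16% of shared windows and in 11.5% of windows of 48 and 72 h only. At promoters it was in 10.7% (5.80 to 17.5%), 6.08% and 8.90%. GGAATG of TEAD was in 16.5%, 15.3% and 17.3%, CAGGTG of SNAI in 23.6%, 22.7% and 25.03%, and CCAAT of NFY in 31.5%, 32.6% and 29.6%. In these the interval of the gained windows took in the shared value. At promoters alone the letters of NFY were less common, in 18.9% (12.3 to 26.9%) against 28.1% of shared and 27.3% of 48 and 72 h only promoters. ACANNNTGT of GRE was in 8.88%, 9.09% and 10.2%, AACAATG of SOX in 5.08%, 4.15% and 3.77%, and TTCNNNGAA of STAT in 7.61%, 9.01% and 8.29%. TTGGCA of NFI, whose letters can overlap those of NFY, was in 14.97%, 18.3% and 17.5%, and TGTTTAC of FOXA in 3.81%, 5.46% and 4.58%.

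AGATAAG of GATA was in 2.03% (0.881 to 3.96%), 3.91% and 3.93%, and CACGTG of the E-box in 2.54% (1.22 to 4.62%), 4.80% and 4.29%. For the E-box the interval of the gained windows lay below the shared value, and for GATA its upper bound was close to it. CAAAGTCCA of HNF4A was in 0.508%, 1.11% and 0.662%. CCGGAAGT of ETS and TGGGTGGTC of GLI were in 0 of 394 windows (upper bound 0.932%), against 0.882% and 0.188% of shared windows. The remaining letters, of CRE (TGACGTCA), HNF1 (GTTAATNAT), CEBP (TTGCGCAA and TTGCNNAAT), CTCF (AGGGGGCGC), E2F (TTTGGCGC and TTTCGCGC) and NFKB (GGGACTTTC and GGGAATTTC), were in 0.254%, 1.02%, 4.06%, 0.761%, 0.508% and 0.508% of gained windows and in 0.450%, 1.28%, 4.21%, 1.17%, 0.430% and 0.489% of shared ones.

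The gained regions were also accessible in the few nuclei that were low in hepatocyte markers, and their promoters were higher there than in hepatocyte-like nuclei. In hepatocyte-low nuclei the summed level was 1572 CPM at 48 h (1436 to 1718), 2359 at 72 h (2164 to 2567) and 1032 at 96 h (786 to 1331). The ratio to hepatocyte-like nuclei was 1.64 (1.49 to 1.79), 1.56 (1.43 to 1.70) and 1.41 (1.07 to 1.82). At promoters it was 2.34, 2.10 and 2.54, and elsewhere 1.16, 1.13 and 0.821, with intervals of 1.001 to 1.33, 0.984 to 1.295 and 0.517 to 1.24. In the regions of 48 and 72 h only the ratio was higher at both times, 1.84 (1.81 to 1.87) at 48 h and 1.81 (1.77 to 1.84) at 72 h, and these intervals did not overlap those of the gained regions. Hepatocyte-low nuclei were shallow, with median counts of 2053, 1606 and 1290 against 12451, 5141 and 3780. No summed ratio was taken for promoters of the other sets. Single shared promoters had an interval above 1 at both 48 and 72 h in 8.58% and below 1 in 3.27%. In other shared regions these shares were 1.48% and 1.35%. Whether the promoter ratio is particular to gained regions was not tested.

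Summed markers of some other cell types were higher in this class and those of others lower. In the larger hepatocyte-low cluster 5 of 9 measured endothelial markers were at least 2-fold above the hepatocyte-like clusters, 2 of 6 stellate and mesenchymal ones and 0 of 3 myeloid ones, and in the smaller 1 these were 2 of 8, 1 of 6 and 1 of 3. Of the 2 measured markers of T, B and NK cells 1 was so in the larger cluster and 0 in the smaller, and of 5 cholangiocyte markers 0 in each. The summed level of the endothelial markers was 544, 441 and 280 CPM in hepatocyte-low nuclei at 48, 72 and 96 h, with Tek at 0 at 72 and 96 h and Lyve1 at 0 at 96 h. In hepatocyte-like nuclei it was 232 CPM at 0 h and 263, 264 and 191 CPM at 48, 72 and 96 h. The 3 measured Kupffer and myeloid markers summed to 336, 215 and 122 CPM in hepatocyte-low nuclei (Ptprc at 0 at 48 and 96 h) and to 118, 130 and 103 CPM in hepatocyte-like nuclei, and the 6 stellate and mesenchymal ones to 179, 228 and 114 CPM (Acta2, Lrat and Pdgfrb at 0 at 96 h) and to 163, 207 and 191 CPM. The 6 cholangiocyte markers summed to less in hepatocyte-low nuclei, with 105, 129 and 140 CPM (Cldn4 at 0 at each time, Sox9 and Spp1 at 0 at 96 h) against 261, 282 and 304 CPM. The T, B and NK markers had 118, 100.8 and 87.4 CPM against 80.5, 83.5 and 87.8 CPM, and no neutrophil marker was measured. The hepatocyte markers summed to 962 to 1047 CPM in hepatocyte-low and 4552 to 5643 CPM in hepatocyte-like nuclei at these times. At 0 h the hepatocyte-like sums were 74.8 CPM for myeloid and 122 CPM for stellate and mesenchymal markers, below each later time. Those of cholangiocyte and of T, B and NK markers were 271 and 84.3 CPM, within the later range. That of hepatocyte markers was 4301 CPM, below the later ones. The clusters are left without a cell type name, and their part in the gain of peaks was not tested.

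**Figure D5:**
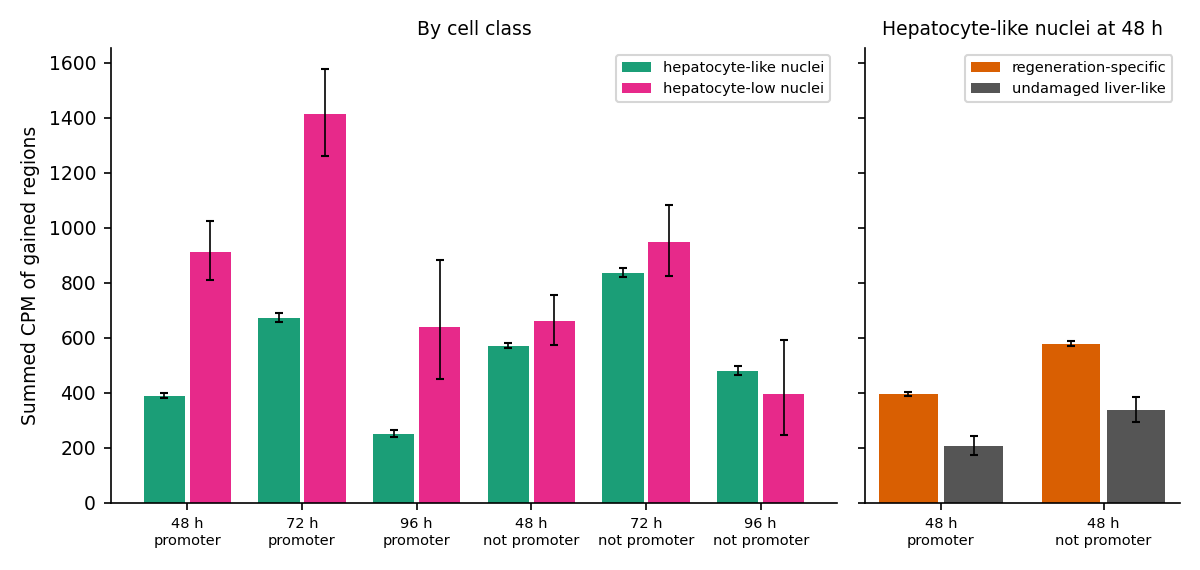
Summed CPM of the gained regions at promoters and elsewhere in hepatocyte-like and hepatocyte-low nuclei at 48, 72 and 96 h (left) and in 48 h hepatocyte-like nuclei that cluster apart from or with 0 h nuclei (right), with exact Poisson 95% intervals as error bars. The promoter bars of hepatocyte-low nuclei are 2.10 to 2.54 times those of hepatocyte-like nuclei.

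In 14 regions (3.55%) the interval of this ratio lay above 1 at both 48 and 72 h. The share was 3.64% in shared regions and 2.57% in regions of 48 and 72 h only. In none did it lie below 1 at both times, against 1.94% of shared regions and 0 of 15400 regions of 48 and 72 h only. Low counts left little room for this. In Prim2, 0 counts in hepatocyte-low nuclei at 48 h still gave an upper limit of 3.545. Of the 14, 11 were at promoters, 9.02% of gained promoters against 8.58% of shared ones and 3.73% of those of 48 and 72 h only. Their number was thus near that of the shared regions and, at promoters, above that of 48 and 72 h only. At 48 h the median counts per region were 94 in gained, 443 in shared and 52 in 48 and 72 h only regions. Fewer counts give wider intervals, so these shares are not like for like. The region at Fli1 had 98.2 CPM in hepatocyte-low and 8.88 CPM in hepatocyte-like nuclei at 48 h (ratio 11.1, 7.32 to 16.2), and 83.3 and 19.3 CPM at 72 h. That at Clec14a, a C-type lectin gene of endothelium (chr12:58268151-58269238), had 8.05 against 0.845 CPM at 48 h and 46.0 against 3.53 CPM at 72 h. Upstream of Wnt2, a Wnt ligand that liver endothelium makes (chr6:18031458-18032156), the levels were 17.7 against 0.995 CPM and 26.3 against 3.20 CPM. The direction in these regions follows from how the 14 were chosen.

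Upstream of Cdh5, which encodes the cadherin of endothelial junctions (chr8:104098954-104099928), the levels were 11.3 against 1.47 CPM at 48 h and 30.7 against 4.19 CPM at 72 h. At Kit, a receptor tyrosine kinase gene (chr5:75574534-75576175), they were 17.7 against 3.83 and 26.3 against 4.99 CPM, and at Pmp22, a gene of peripheral myelin (chr11:63132425-63133562), 40.2 against 2.72 and 39.5 against 3.81 CPM. The other members of the 14 were near Myo10, Slc8a1, Socs5, Vav3, Slc10a4, Tm6sf1, Hdgfl3 and Mtss1l, with ratios of 3.53 to 10.1 at 48 h and 2.69 to 20.5 at 72 h. Regions near other endothelial genes were not among the 14. At Flt4, which encodes a VEGF receptor, the ratio was 1.503 (0.0374 to 8.72) at 48 h and 3.11 (0.496 to 10.7) at 72 h. At Esm1, a secreted proteoglycan gene of endothelium, it was 3.40 (0.552 to 11.4) and 1.39 (0.0342 to 8.30). In a region 13148 bp from the start of Vwf, the gene of von Willebrand factor, hepatocyte-low nuclei held 1 and 0 counts at 48 and 72 h, with a ratio of 0.659 (0.00064 to 6.36) at 48 h. The developmental regions as a group had a ratio of 1.52 (1.15 to 1.99) at 48 h and of 0.983 (0.708 to 1.33) at 72 h. Their ratio at 96 h, from 8 counts in hepatocyte-low nuclei, was 1.45 with limits of 0.393 and 3.75. At Cbln2 hepatocyte-low nuclei held 2 and 0 counts at 48 and 72 h. Near Fgl1 they had 9.65 CPM at 48 h, from 6 counts, against 23.2 CPM in hepatocyte-like nuclei.

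Within 48 h, the study divided hepatocyte nuclei into regeneration-specific ones and undamaged liver-like ones. Here a cluster counted as regeneration-specific when at least 90% of its 0 and 48 h nuclei came from 48 h. The names are the study's, but its own clusters were not used, and the clusters here split largely by library. Only 109 of the 3677 hepatocyte-like nuclei at 48 h were undamaged liver-like by this rule. The paper counts a significant portion of 48 h hepatocytes as close to undamaged ones, so its split and this one need not match. The gained regions played no part in the clustering, but a 48 h peak and no 0 h peak chose them, and the undamaged liver-like nuclei are those that cluster with 0 h. A lower level in these nuclei is thus in part set by the choice and is given as a description. The summed level was 542 CPM (489 to 600, 746 counts) in the 109 undamaged liver-like nuclei and 972 CPM (960 to 984) in the 3568 regeneration-specific ones, a ratio of 0.558 (0.503 to 0.618) at like median depths of 11903 and 12456 counts. The ratio was 0.520 at promoters and 0.584 elsewhere, and the regions of 48 and 72 h only gave 0.557, so it was not particular to regions that kept a peak at 96 h. Of the 109 nuclei 18 carried a barcode also found in another library, and without such barcodes the ratio was 0.552 (91 nuclei).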

How the data were processed

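Hepatocyte nuclei of mouse liver (PHx 0, 48, 72 and 96 h, 1 library each) were profiled by scATAC-Seq. The authors deposited, per library, a peak list and a matrix of whole-number counts of cut sites per peak and barcode, made with Cell Ranger ATAC, for which the matrix headers name version 1.1.0. The submitters' processing notes name mm10. Peak calling by the authors was done library by library, so a count depends on the length of that library's peaks. Between 87.4% and 88.6% of values were even, as both ends of a fragment count.

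Peaks of the 4 lists were merged where they touched or overlapped, on chromosomes 1 to 19. CPM divides the counts of hepatocyte-like nuclei (at least 1000 counts) by their counts in shared regions (123743656, 53257163, 21250348 and 14623216 from 0 to 96 h) and multiplies by 1000000. Clustering used the binarised shared regions (TF-IDF, 30 components less the first, 30 neighbours, Leiden at resolution 0.5), and a cluster below -1 in hepatocyte markers, summed over shared regions in the gene or the 2000 bp upstream, was hepatocyte-low. Doublets were not called, and 1 alternative drops the deepest 5% of nuclei of each library. Others were other pseudocounts, count minimums, windows, scalings and barcode sets, and closing values give their effect. Start sites and genes were those of GENCODE vM21, sequence that of RefSeq GRCm38. Python 3.11.15, NumPy 2.4.6, SciPy 1.17.1, pandas 2.3.3, scikit-learn 1.9.0, igraph 0.11.9, leidenalg 0.10.2, pysam 0.24.0 and matplotlib 3.10.9 were used, and the code was tested on simulated data.

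The gained regions and the lists were chosen with earlier results of these data known. Regions named were the 10 with the highest mean CPM, the 5 with the largest fall and the 5 with the largest rise from 48 to 96 h in CPM per kb (at least 20 counts in 1 library), the 10 highest within 1000 bp of a protein-coding start, genes nearest to 3 or more regions, and regions nearest to a gene of 16 lists. The developmental genes, the region near Fgl1 among the printed windows and the regions named by cell class were chosen after values had been seen. The study's own clusters were not used here. The window of 1 further region near a list gene is not reported here.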

Additional observations from a re-analysis of the deposited data

How the results depend on the processing

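Of 127 alternative values, 72 stayed within the interval of the main value or 1.5 times its count, 51 moved and 4 reversed. The interval covers counting error for levels and ratios, and the regions counted for medians and shares. The reversals were the CPM changes to 96 h. In CPM per kb the median log2 change was 1.19 from 48 h and 0.69 from 72 h, and among regions of like length 1.31 (14 regions) and 1.04 (4 regions). The change from 48 to 72 h stayed above 0, at 0.74 and 0.42 with pseudocounts of 0.1 and 2 CPM, 0.48 in CPM per kb and 0.45 at like length. That from 72 to 96 h was -1.16 and -0.61 with these pseudocounts. A pseudocount of 2 CPM lowered the numbers of regions 2-fold higher and lower to 28 and 3 (48 to 72 h), 8 and 47 (48 to 96 h) and 3 and 111 (72 to 96 h). In CPM per kb they were 19 and 6, 245 and 21, and 106 and 25. At like length 0 of 91 were 2-fold higher at 72 h than at 48 h, and 12 of 14 and 3 of 4 were 2-fold higher at 96 h than at 48 and 72 h, and with at least 50 counts 22 were higher at 96 than at 48 h. When each later peak had to hold at least the median count of its library, 2 regions were left, and with at least 50 bp at each later time 317. The summed level was 840 and 1333 CPM at 48 and 72 h over all barcodes, 1339, 1748 and 992 CPM at 48, 72 and 96 h after binarising, 985 CPM at 48 h without the 5% deepest nuclei, and 1450 and 546 CPM at 72 and 96 h when scaled by 57 shared promoter regions of like length. It was 914, 1438 and 709 CPM without members near a 0 h peak (1000 bp), and, in alternatives chosen after seeing the data, 821, 1280 and 696 CPM with at least 50 bp of peak and 978 CPM at 48 h without barcodes of several libraries. In each of these that gave all times, 72 h was highest and 96 h lowest. The hepatocyte-low ratio was 1.39 at 72 h with at least 3000 counts per nucleus, which left none at 96 h, and 1.35 and 1.05 at 72 and 96 h in the smaller cluster alone, chosen after seeing the data. Promoters were 26.1% with protein-coding starts. GC content was 50% in 500 bp windows and 49.3% apart from promoters, where 4.41% were CpG-island-like, also chosen after seeing the data. AP-1 letters were in 7.36% of 200 bp and 18.3% of 500 bp windows. At 96 h the regions had a median of 24 counts, and raising the count minimum to 50 left the changes to 96 h at -0.43 and -1.12. The cause of these shifts was not tested. No paired analysis was possible because each time point has 1 library.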

Other observations

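At 96 h, 44 of the gained regions drew over 25% of their counts from 1 nucleus, against 7 at 48 h and 7 at 72 h. The deposited barcodes that occurred in more than 1 library made up 22.9% of those at 0 h and 16.8%, 16.8% and 18.5% at 48, 72 and 96 h. At 0 h the nuclei with such a barcode were deep, with a median of 72341 counts against 19442 in the others. They were also deeper at 48 h (45764 against 11115) and at 96 h (5616 against 3656), and at 72 h they were not (4281 against 4852). Of the later nuclei that clustered with 0 h nuclei, 18 of 109 at 48 h, 35 of 37 at 72 h and 13 of 14 at 96 h carried a barcode found in another library.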
